A study of Mus musculus with 1829 samples.

Results

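Cells sorted from the pancreatic islets of NOD/ShiLtJ mice as insulin-binding CD4+ T cells were compared at 13 and at 7 weeks of age. Not every well showed the transcripts of such a cell. Cd4 was detected in 0 of 277 wells that yielded few transcripts of any kind, which says little about the cell sorted. Of the well-yielding wells at 13 weeks 30 lacked Cd3e, as set out below. NOD/ShiLtJ is a mouse strain that develops autoimmune diabetes without any treatment. The comparison took in every islet cell labelled with either age: 470 of the 1829 cells in the series, of which 328 were labelled 7 weeks. Each cell had been stained with a fluorescent tetramer of IAg7, through which this strain presents class II peptides, and sorted into its own well. The tetramer carried either residues 12-20 or residues 13-21 of the insulin B chain. At 13 weeks there were 70 cells of the 12-20 tetramer and 72 of the 13-21 tetramer. They came from 3 animals, called M2, M3 and M4, with 48, 48 and 46 cells. The 7-week cells came from 7 animals (M1, M2, M3, M4, M7, M10 and M11) and from 4 sorts (i1 to i4). The labels do not say whether each sort was a single animal, or the same mouse as the 7-week animal of that number. Animals that bear the same number at different ages are different samples. The labels name no allele, transgene or treatment beyond the strain itself. Neither sex nor blood glucose was among the labels used here.

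CD4+ T cells recognise peptides held by class II molecules on antigen-presenting cells, through a receptor whose signal passes by the CD3 chains and the kinase ZAP70. Insulin is a main target of such cells in NOD mice, in which T cells, dendritic cells, macrophages and B cells gather in the islets before diabetes appears. A Th1 cell follows the factor T-bet, encoded by Tbx21, and makes interferon gamma and tumour necrosis factor. A regulatory T cell follows Foxp3, and a follicular helper cell carries Bcl6, ICOS and PD-1 and secretes interleukin 21. PD-1 and CTLA-4 also restrain activated T cells.

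Transcripts of each cell were measured by quantitative PCR with 96 assays, and 95 assays matched a mouse gene. A gene counted as detected in a well when its assay passed the authors' quality call before cycle 24. Its log2Ex was then 24 minus the cycle at which it crossed the threshold, and 0 otherwise. The number of assays detected measures how much a well yielded, as depth does for a sequenced library. Log2Ex was averaged over all cells that shared an animal or sort and a tetramer, and each such mean of at least 5 cells made 1 unit of comparison. A difference between units holds both how many cells detected a gene and how early they did. It is therefore not a fold change, and lower detection in a unit cannot be told apart from less RNA per cell.

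Wells fell into 2 sets. Of the 470 islet wells 277 detected fewer than 20 assays, and the rest detected 20 or more. Only 8 wells lay between 15 and 24 assays, 2 of them at 13 weeks and 6 at 7 weeks. In the 277 poor wells, 10 assays were detected in 59.6% to 99.6% of wells. These were Gapdh, Ifit3, Ccr6, Ccr2, Isg15, Ifi44, Cxcl10, Il25, Bcl2 and Gsk3a, and the next assay was detected in 4.69%. Of the markers that define the sorted cell, Cd4 was detected in 0 of the 277 poor wells (a count of 0 allows 1.08%) and Cd3e in 3.

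At 13 weeks 73.2% of islet wells were rich, that is, detected 20 or more assays (Clopper-Pearson 95% interval 65.2 to 80.3). At 7 weeks 89 of 328 were (27.1%, interval 22.4 to 32.3). These intervals hold only the error of counting, because an animal gave many wells. Among the 13-week animals the share was 29.2% in M2 (14 of 48 wells), 100% in M3 (48 of 48) and 91.3% in M4 (42 of 46). At 7 weeks it was 92.1% in M2, 75% in M1 and 100% in both M3 and M4, but 33.8% in i2, 16.7% in i1 and 8 of 64 wells in i3. In M7, M10, M11 and i4 no islet well reached 20 assays, and the limit that a count of 0 allows ran from 6.67% in M7 to 42.9% in i4. The chip that held the M7 islet wells also held M7 lymph node wells, of which 30 of 46 were rich. The mean over animals and sorts was 73.5% ± 38.6 (SD, n = 3) at 13 weeks and 39.1% ± 43.4 (SD, n = 11) at 7 weeks. The difference was within the spread between animals (two-sided exact permutation p = 0.209, adjusted p = 0.348 over 5 such tests). Rich wells held 47 ± 2.60 assays (SD, n = 3) at 13 weeks and 46.5 ± 7.81 (SD, n = 6) at 7 weeks (two-sided exact permutation p = 0.976).

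**Figure D1:**
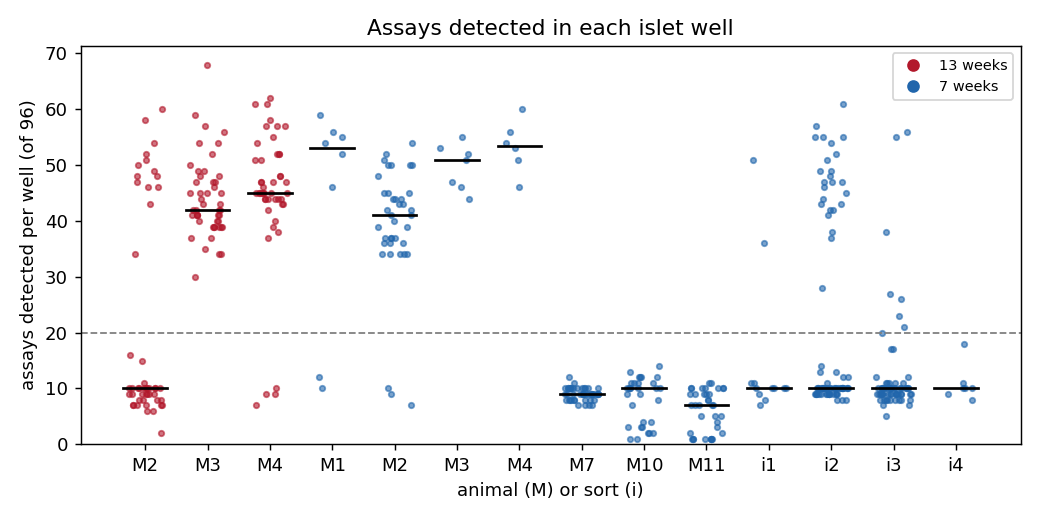
Each point is 1 islet well, with the number of assays detected out of 96 on the vertical axis and the animal or sort on the horizontal axis; black bars are medians and the dashed line is at 20 assays. Most wells lie either near 10 assays or above 30, and the 7-week M7, M10, M11 and i4 have no well above the line.

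Age cannot be told apart from chip. Each 13-week animal filled a chip of its own, and no chip held both ages, so every age difference also holds whatever differed between chips. Of the 10 chips with islet wells of these ages, 6 entered the comparison of rich wells. The fluorescence thresholds of those 6 chips lay within 0.356 cycles of each other. Where an animal gave both tissues, its lymph node and islet wells lay on the same chip, and the lymph node was used to set the age difference against.

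The sorted cells were first checked against the markers of a CD4+ T cell. Among rich islet wells Cd4 was detected in 97.1% at 13 weeks and in 83 of 89 at 7 weeks. Cd8a, the marker of CD8 T cells, was detected in 4 and in 1. Cd3e, which encodes a CD3 chain that the receptor signals through, did not follow Cd4. At 13 weeks 30 rich wells lacked Cd3e and 74 detected it (28.8% without it, Clopper-Pearson interval 20.4 to 38.6), and 27 of those 30 detected Cd4. All 3 animals had such wells: 6 of 14 in M2, 7 of 48 in M3 and 17 of 42 in M4. At 7 weeks 8 of 89 rich wells lacked Cd3e, 5 of them in i3 and 3 in M2.

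The 30 wells without Cd3e were as rich as the others at 13 weeks, with a median of 45 assays in both, but they detected other genes. Cd86, Cd80 and Cd40, which encode co-stimulatory molecules of antigen-presenting cells, were detected in 29, 23 and 16 of the 30. Among the 74 wells with Cd3e they were detected in 9, 6 and 6. At least 2 of these 3 genes were detected in 26 of the 30 wells without Cd3e and in 4 of the 74 with it. Ccr1, a chemokine receptor, was detected in 23 of 30 against 4 of 74. Ifngr1, the interferon gamma receptor, and Tnfrsf1a, which binds tumour necrosis factor, were detected in all 30, against 41 and 27 of 74. Zeb2, a transcription factor, was named after its values were seen, and was detected in 28 of 30 against 17 of 74.

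Several genes of T cell signalling and fate went the other way. Zap70, Ctla4, Pdcd1, Ifng, Tbx21, Il18r1 and Foxp3 were detected in 0 of the 30 wells without Cd3e, which allows a share of up to 10%. Among the 74 wells with Cd3e, Ctla4 was detected in 90.5%, Zap70 in 86.5%, Pdcd1 in 74.3% and Ifng in 56.8%. Cd28, the T cell receptor for CD80 and CD86, was detected in 4 of 30 against 64 of 74, and Icos in 12 of 30 against 65 of 74. Bcl6 did not go that way in M3 and M4. Over all rich 12-20 wells its mean log2Ex was 2.88 in M3 and 6.1 in M4. In those with Cd3e it was 2.09 and 5.80. Cd4 was not weaker in the wells without Cd3e, since its mean log2Ex in detecting wells was 13.27 there and 10.40 in wells with Cd3e. Gapdh, a reference gene, was detected in every one of these wells, at 14.09 and 13.92. It was also detected in 276 of the 277 poor wells, so its detection says little about how much a well yielded. Tnf was detected in 9 of 30 and in 43 of 74. These values describe wells split on Cd3e and carry no test. Which cells those wells held was not tested.

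**Figure D2:**
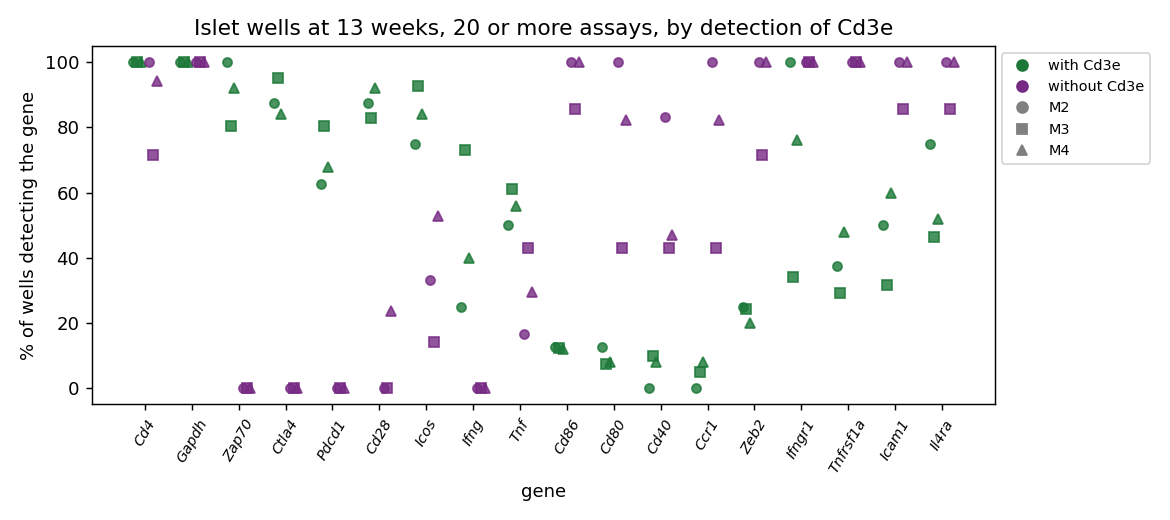
Each point gives, for 1 of the 3 animals at 13 weeks, the percentage of rich islet wells that detected the gene named below the axis; green marks wells with Cd3e and purple marks wells without it. Zap70, Ctla4, Pdcd1 and Ifng are at 0 in the wells without Cd3e of all 3 animals, while Cd86 is at 85.7% or more there and at 12.0% to 12.5% in the wells with Cd3e.

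Over animals, the share of rich wells with at least 2 of Cd80, Cd86 and Cd40 was 42.9% in M2, 16.7% in M3 and 38.1% in M4 at 13 weeks. At 7 weeks it was 0 in 5 of the 6 animals or sorts with at least 5 rich wells, and 2.86% in M2. The means were 32.5% ± 13.95 (SD, n = 3) and 0.476% ± 1.17 (SD, n = 6), and the groups did not overlap. The two-sided exact permutation p was 0.0238, the smallest that 3 against 6 allows, and 0.119 after adjustment over the 5 tests. Cd80, Cd86 and Cd40 were chosen with earlier results of these data known. Each also had an unadjusted p under 0.05 in the limma fit of rich islet wells given below. The permutation p for their share is therefore descriptive and not an independent test. The share without Cd3e was 32.6% ± 15.7 (SD, n = 3) against 11.8% ± 25.1 (SD, n = 6; two-sided exact permutation p = 0.333, adjusted p = 0.417). That test turned on i3, where 5 of 8 rich wells lacked Cd3e with a median of only 23 assays and with none of the 3 co-stimulatory genes. Without i3 the 7-week mean was 1.71% and the exact permutation p was 0.0357, unadjusted. With any other animal or sort left out the exact permutation p ran from 0.214 to 0.571. The lymph nodes of the same 13-week animals also held such wells, 17.2% ± 8.41 (SD, n = 3), against 3.91% ± 1.93 (SD, n = 3) at 7 weeks. There the exact permutation p was 0.1, the smallest that 3 against 3 allows, and 0.25 after adjustment. Of 14 lymph node wells without Cd3e at 13 weeks, 6 detected at least 2 of the 3 co-stimulatory genes, and of 4 such wells at 7 weeks none did.

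**Figure D3:**
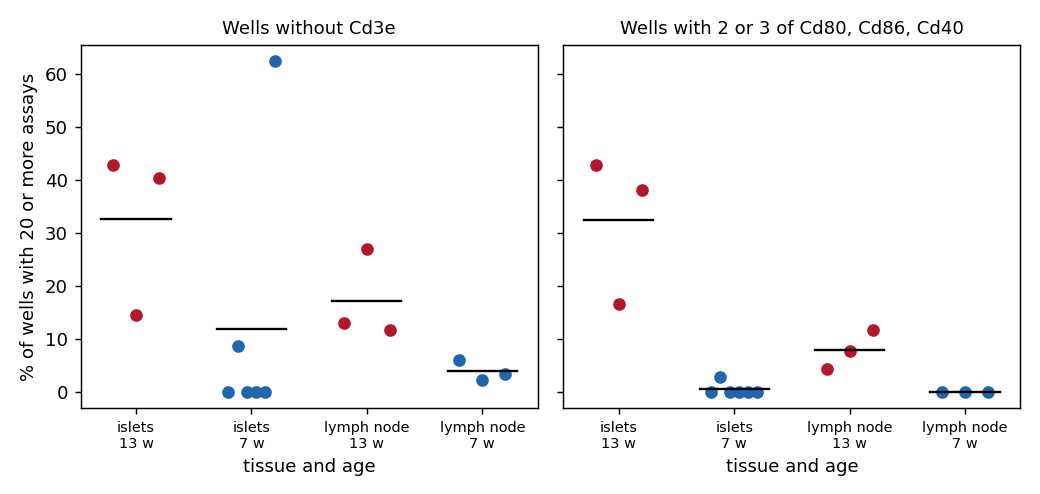
Each point is 1 animal or sort with at least 5 rich wells; the vertical axes give the percentage of its rich wells that lacked Cd3e (left) or detected 2 or 3 of Cd80, Cd86 and Cd40 (right), and black bars are group means. On the right, the 3 islet samples at 13 weeks lie between 16.7% and 42.9%, above every other sample; on the left the 7-week point at 62.5% is sort i3.

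In rich islet wells most effector genes, Pdcd1 and Ctla4 had lower unit means at 13 than at 7 weeks. Co-stimulatory genes had higher ones. No gene passed the test across the panel, in which 0 of 79 genes (0.0%) had an adjusted p under 0.05. At an unadjusted p under 0.05 there were 20 genes (25.3%), 10 of them higher (12.7%) and 10 lower (12.7%) at 13 weeks. These rich wells made 6 units at 13 weeks (6 to 24 cells each, 3 animals) and 5 at 7 weeks (66 cells from M1, M2 and i2, 5 to 20 each). The 13-week units include the 30 wells without Cd3e, none of which detected Pdcd1, Ctla4 or Ifng. The part of those wells in the lower means was not tested in this fit. The fit took the tetramer as a term and the animal as a random block, whose correlation was 0.501. The 7-week M2 and i2 entered as separate blocks, though the labels do not say that they were different mice. The median difference over the 79 genes was 0.22 in log2Ex, and 44 of the 79 differences were above 0. Leaving out the 13-week animal M3 gave 15 genes past the threshold, and leaving out the 7-week animal M2 gave 2. Without the block there were 14.

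Tnf, which encodes tumour necrosis factor, had the smallest p. Its unit means at 13 weeks ran from 2.94 through a median of 3.73 to 6.36. At 7 weeks they were 9.66 in M1, 6.66 and 7.77 in M2, and 6.55 and 9.14 in i2. Every 13-week unit was thus below every 7-week unit, which held for 3 genes below and 1 above out of 79 (5.06%) over M1, M2 and i2. The difference was -4.22 (SE 1.09, adjusted p = 0.124). Tnf was detected in 52 wells, or 50%, at 13 weeks and in 54 of 66 wells at 7 weeks. In the wells that detected it, its level was 8.59 ± 1.17 (SD, n = 6 units) and 9.11 ± 0.405 (SD, n = 5 units), a difference within their spread. With 1 mean per animal, which adds the 7-week M3, M4 and i3, the groups overlapped: 3.15 to 5.20 at 13 weeks against 2.13 in i3 and 6.59 to 9.66 in the others. The Tnf difference was then -2.67 (SE 1.38, adjusted p = 0.285), and Cd86 had the smallest p instead.

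Of the 9 tested genes of the Th1 and effector list, 6 had lower and 3 higher means at 13 weeks, with a median difference of -2.97 beside 0.22 over all genes. At an unadjusted p under 0.05, 6 of the 9 were lower and 1 was higher, beside 12.7% of all genes in each direction. Ifng, which encodes interferon gamma, ran from 0.92 through 2.23 to 7.36 at 13 weeks. At 7 weeks it was 7.08 in M1, 5.51 and 5.93 in M2, and 7.60 and 7.12 in i2. A single 13-week unit, the 13-21 cells of M3 at 7.36, lay within the 7-week range and the others lay below it. The difference was -3.56 (SE 1.21, adjusted p = 0.128). Il18r1, a receptor for interleukin 18 that Th1 cells carry, was at 1.37 to 4.80 at 13 weeks and at 2.97 to 9.26 at 7 weeks, so the groups overlapped (difference -4.41, SE 1.32, adjusted p = 0.124). Stat4, which relays interleukin 12 signals, differed by -2.97 (SE 1.08, adjusted p = 0.130).

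Tbx21 was at 0.86 to 2.84 at 13 weeks and 2.81 to 5.56 at 7 weeks (difference -2.02, SE 0.934, adjusted p = 0.197). Cxcr3, a chemokine receptor of Th1 cells, differed by -3.08 (SE 1.34, adjusted p = 0.164). Il2, which encodes interleukin 2, was detected in 1 well at each age and was too rare to test.

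Pdcd1, which encodes PD-1, had the largest negative difference. Its unit means ran from 2.72 through 4.50 to 7.66 at 13 weeks. At 7 weeks they were 11.30 in M1, 5.30 and 8.93 in M2, and 9.04 and 10.27 in i2. The 12-20 cells of the 7-week M2 fell within the 13-week range, and the other 7-week units lay above it. The difference was -4.66 (SE 1.35, adjusted p = 0.124). It was detected in 52.9% of wells at 13 weeks and in 54 of 66 at 7 weeks. Of the 4 follicular helper genes 3 had lower means. Icos differed by -2.0 (SE 0.997, adjusted p = 0.209) and Il21 by -2.01 (SE 1.51, adjusted p = 0.423), while Bcl6 differed by 0.17 (SE 1.31, adjusted p = 0.910). Il21 split the 13-week units: it was at 7.99 in the 13-21 cells of M3, where 83.3% of wells detected it, and at 0 in both units of M2.

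Ctla4, the other inhibitory receptor, was lower by less (difference -1.72, SE 1.38, adjusted p = 0.472), with units from 2.98 to 7.71 at 13 weeks and from 4.26 to 9.12 at 7 weeks. In wells that detected Cd4 and Cd3e it differed by 0.22 with at least 3 cells per unit and by 0.60 with at least 5. Cd28 was at 3.38 to 6.71 at 13 weeks and at 7.57 to 11.28 at 7 weeks, with no overlap (difference -3.08, SE 1.16, adjusted p = 0.130). The 5 genes of activation and memory all had lower means, with a median of -1.97. Among them Cd44, which marks antigen-experienced T cells, differed by only -0.17 (SE 0.885, adjusted p = 0.892). The naive and central memory genes showed no shared direction: Ccr7 differed by -1.36 (SE 1.35, adjusted p = 0.544) and Il7r by 0.65 (SE 1.01, adjusted p = 0.713).

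Regulatory genes had no difference beyond the spread. Foxp3 was at 0 to 5.73 at 13 weeks and at 0.96 to 2.49 at 7 weeks (difference 1.27, SE 1.26, adjusted p = 0.544). The 13-week units at the ends of that range were the 13-21 cells of M3, none of which detected it, and the 12-20 cells of M2. Il10, which encodes an inhibitory cytokine, differed by 1.08 (SE 1.11, adjusted p = 0.545), and Il2ra, a chain of the interleukin 2 receptor, by -0.97 (SE 1.31, adjusted p = 0.649). The 95% interval of the Foxp3 difference, -1.43 to 3.97, also holds a difference as large as the 3.13 of Il4ra.

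**Figure D4:**
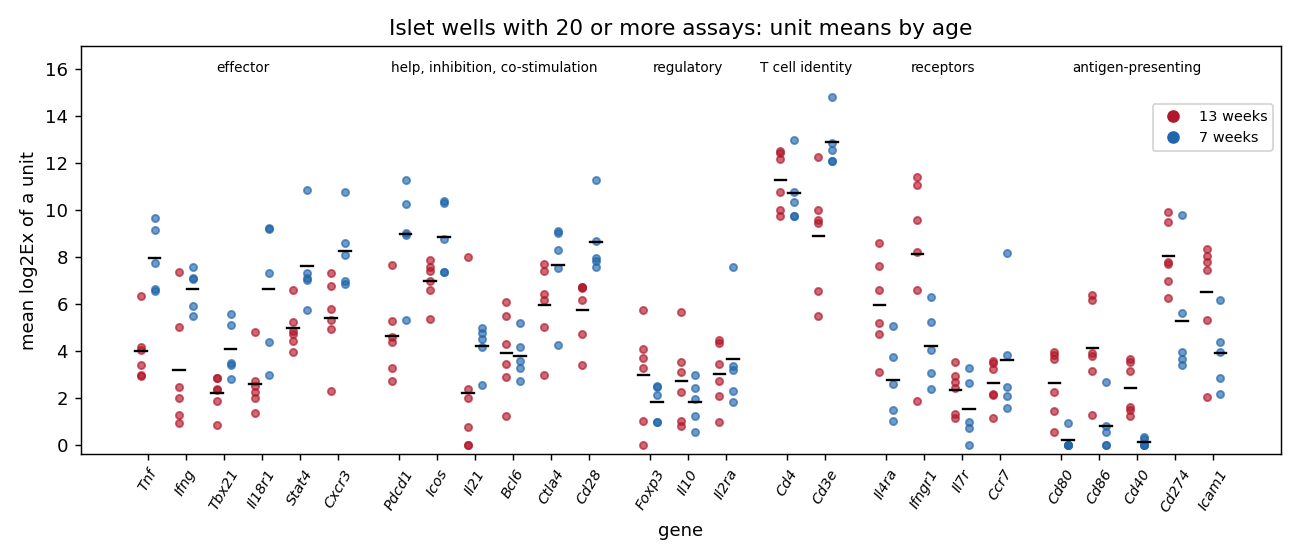
Each point is the mean log2Ex of 1 unit of rich islet wells, red at 13 weeks (6 units) and blue at 7 weeks (5 units), with black bars at the group means and genes grouped by role. The 13-week points of Tnf lie below every 7-week point, at 6.36 or less against 6.55 or more, and those of Cd40 lie above, at 1.21 or more against 0.32 or less; most other genes overlap.

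All 5 co-stimulatory and antigen-presenting genes had higher means at 13 weeks, with a median difference of 2.52. Cd80 ran from 0.57 through 2.97 to 3.98 at 13 weeks, and at 7 weeks it was at 0.95 in the 12-20 cells of i2 and at 0 in the other 4 units (difference 2.54, SE 0.874, adjusted p = 0.128). Cd40 differed by 2.40 (SE 0.826, adjusted p = 0.128), with every 13-week unit above every 7-week unit. Cd86 was at 1.25 through 3.86 to 6.40 at 13 weeks and at 0 to 2.68 at 7 weeks (difference 3.39, SE 1.26, adjusted p = 0.130). Icam1, an adhesion molecule, differed by 2.52 and Cd274, which encodes the PD-1 ligand PD-L1, by 2.44 (adjusted p = 0.209 and 0.248). The share of wells without Cd3e moved with these genes, and its part in them was not tested in this fit. Cd3e itself was at 5.47 through 9.51 to 12.25 at 13 weeks and at 12.08 to 14.84 at 7 weeks (difference -4.23, SE 1.45, adjusted p = 0.128), and Cd4 differed by 0.38 (SE 0.989, adjusted p = 0.830).

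Of the 10 cytokine receptors 7 had higher means, with a median of 0.54, beside 44 of 79 genes and a median of 0.22 over the panel. Il4ra, a chain of the interleukin 4 receptor, ran from 3.11 through 5.88 to 8.59 at 13 weeks and from 1.01 through 2.59 to 5.05 at 7 weeks (difference 3.13, SE 1.12, adjusted p = 0.130). Ifngr1 differed by 4.10 (SE 1.64, adjusted p = 0.135) and Tnfrsf1a by 2.98 (SE 1.22, adjusted p = 0.135). Interferon-stimulated genes split, 7 higher and 5 lower with a median of 0.81, and Ifi44 was the member furthest below (difference -2.69, adjusted p = 0.135). Of the 5 lower members, Ifi44, Ifit3, Isg15 and Cxcl10 were among the assays detected in most poor wells (81.2% to 92.8% of them). The fifth was Aim2. Signalling genes split 6 and 6, with a median of 0.01. The reference genes Gapdh and Hprt differed by -0.38 (SE 0.773) and 0.25 (SE 1.14).

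In wells that detected both Cd4 and Cd3e, Tnf and Pdcd1 still had lower means at 13 weeks, and no co-stimulatory gene had an unadjusted p under 0.05. There were 74 such wells at 13 weeks and 80 at 7 weeks, 8 of the former from M2. With at least 3 cells per unit, 6 units stood against 8 and 0 of 77 genes (0.0%) passed. At an unadjusted p under 0.05 there were 5 genes (6.49%), 4 lower and 1 higher. The median over all genes became -0.43. The 5 co-stimulatory genes had a median of 0.54 and a range of 0.30 to 0.69, and Cd86 differed by 0.44 (SE 0.639, adjusted p = 0.816). The difference was -3.65 for Tnf (SE 1.06, adjusted p = 0.289) and -3.18 for Pdcd1 (SE 1.15, adjusted p = 0.402). Il18r1 differed by -2.99 (SE 1.19, adjusted p = 0.412) and Ifng differed by -2.71 (SE 1.10, adjusted p = 0.412). With at least 5 cells per unit, which drops the 13-week M2, 0 of 76 genes passed and 1 gene (1.32%) had an unadjusted p under 0.05, which was Tnf (difference -3.30, SE 1.08, adjusted p = 0.870). There Pdcd1 differed by -2.31 (SE 1.39), Il18r1 by -3.09 (SE 1.55) and Ifng by only -1.09 (SE 1.15), each with an adjusted p of 0.870. Among co-stimulatory genes Cd274 differed by 1.01 and Icam1 by -0.16.

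By animal, Tnf was detected in 4 of 8 such wells in M2, 25 of 41 in M3 and 14 of 25 in M4 at 13 weeks, or 50%, 61% and 56%. At 7 weeks, in the 5 samples with at least 5 such wells, it was detected in 100% in M1, 81.2% in M2, 85.7% in M3, 66.7% in M4 and 80% in i2. The shares did not overlap, and the nearest pair were 61% in the 13-week M3 and 66.7%, or 4 of 6 wells, in the 7-week M4. Pdcd1 was detected in 62.5%, 80.5% and 68% at 13 weeks and in 81.2% to 100% at 7 weeks, with 80.5% in the 13-week M3 next to 81.2% in the 7-week M2. How many of all genes had shares without overlap is not given here. In the unit means of at least 3 such cells all 77 genes overlapped between the ages. Tnf was there at 2.27 to 6.21 at 13 weeks and at 5.28 to 9.88 at 7 weeks. Ifng overlapped in part, at 25% in M2, 40% in M4 and 73.2% in M3 at 13 weeks and from 50% to 85.7% at 7 weeks.

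The 13-week animals differed among themselves in these wells. Foxp3 was detected in 6 of 8 wells in M2, 12 of 25 in M4 and 9 of 41 in M3, and Il10 in 6 of 8, 5 of 25 and 10 of 41. Il21 went in the opposite order to Foxp3, with 0 of 8 in M2, 6 of 25 in M4 and 26 of 41 in M3. Ifng followed Il21, at 2 of 8, 10 of 25 and 30 of 41. At 7 weeks Foxp3 was detected in 16.7% to 50% and Il21 in 33.3% to 57.1% of the wells of an animal. The 13-week animals thus lay on both sides of the 7-week range for Il21, and M2 lay above it for Foxp3. No test was made of these orders. The counts pool both tetramers. Among 12-20 cells alone M3 and M4 changed places in mean log2Ex, with Foxp3 at 4.34 and 2.39 and Il21 at 3.17 and 4.80. Ifng kept its order there, at 6.70 and 5.84. Among 13-21 cells Foxp3 was at 0 in M3 and 5.52 in M4, and Il21 at 8.34 and 1.05. Ctla4 varied little, from 84% to 95.1% at 13 weeks.

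Each tetramer was also compared alone. Among 12-20 cells (3 units against 3), 0 of 81 genes (0.0%) passed and 19 (23.5%) had an unadjusted p under 0.05. Tnf differed by -3.74, Pdcd1 by -4.15, Ifng by -3.93 and Cd86 by 3.99. Among 13-21 cells (3 units against 2), 0 of 80 genes (0.0%) passed and 9 (11.2%) had an unadjusted p under 0.05. There Tnf differed by -4.37, Pdcd1 by -4.68, Ifng by -2.98 and Cd86 by 2.45. A test of whether the tetramers differed in the age difference called 0 of 79 genes (0.0%), and 1 gene (1.27%) had an unadjusted p under 0.05.

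Over all wells in units of at least 5 cells (315 wells at 7 weeks and every well at 13 weeks), most genes had higher unit means at 13 weeks, where more wells were rich. Here 19 of 79 genes (24.1%) were higher at 13 weeks and 0 lower, and 74 of 79 differences were above 0, with a median of 1.82. At an unadjusted p under 0.05 there were 35 genes (44.3%), all higher. There were 6 units at 13 weeks and 16 at 7 weeks. The called genes included all 5 co-stimulatory genes, among them Cd80 (difference 1.58, SE 0.418, adjusted p = 0.0242) and Cd40 (difference 1.53, SE 0.410, adjusted p = 0.0242). They also included 3 of 10 cytokine receptors, Il4ra (3.22), Tnfrsf1a (3.26) and Ifngr1 (4.22), and 4 of 12 signalling genes, such as Socs3 (3.07), which restrains cytokine signals. Cxcr4, a chemokine receptor, differed by 5.07. Of the T cell identity genes none passed, nor did any follicular helper or regulatory gene.

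Tnf, lower in rich wells, differed by 1.14 over all wells (SE 1.5, adjusted p = 0.528). Pdcd1 differed there by 1.46 (SE 1.88, adjusted p = 0.528). Both signs therefore depended on which wells were counted. Leaving out M7, M10 and M11, which had no rich islet well, left 0 calls, as did leaving out the sorts, the 13-week M4 or the 7-week M10. In wells that detected a gene, levels gave 0 calls too, with a median of 0.16 over 68 genes.

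Set against the lymph node, the age difference of Tnf and Pdcd1 was more negative in the islets. The lymph node gave 6 rich-well units at each age, from M2, M3 and M4 at 13 weeks and from M2, M3 and M7 at 7 weeks. The 13-week animals and the 7-week M2 entered with both tissues, M1 and i2 with islets alone, and M3 and M7 with lymph node alone. The test of the difference between tissues called 2 of 77 genes (2.6%), both lower in the islets, and 17 (22.1%) had an unadjusted p under 0.05. For Tnf it was -3.99 (SE 0.872, adjusted p = 0.00901). For Pdcd1 it was -4.88 (SE 1.25, adjusted p = 0.0250). Il18r1 at -4.03 and Cd40 at 2.19 were next, both with an adjusted p of 0.0501. In the lymph node itself Tnf was at 1.13 to 2.62 at 13 weeks and 1.46 to 2.51 at 7 weeks, a difference of 0.001 (SE 0.421). Pdcd1 there was at 0.91 to 4.79 and 0.94 to 2.21, a difference of 0.72 (SE 0.635). The 7-week lymph node means were only 2.06 for Tnf and 1.44 for Pdcd1, and log2Ex cannot go below 0. A fall as large as in the islets was therefore not possible in the lymph node. For that reason the test between tissues cannot show that these age differences are particular to the islets.

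Both calls rested on few animals. Without the 13-week M2 or M4 no gene passed, without the 13-week M3 there were 18, and without the 7-week M2, M1, i2, M3 or M7 there were 6, 4, 1, 1 and 1. With the animal as a fixed block, which compares tissues only within animals measured in both, 0 passed. In wells with Cd4 and Cd3e 1 gene passed. Lymph node cells alone gave 0 of 72 genes (0.0%) past the threshold between the ages and 10 (13.9%) at an unadjusted p under 0.05, among them Cd86 (difference 1.23) and Cd3e (difference -1.64), both in the same direction as in the islets.

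**Figure D5:**
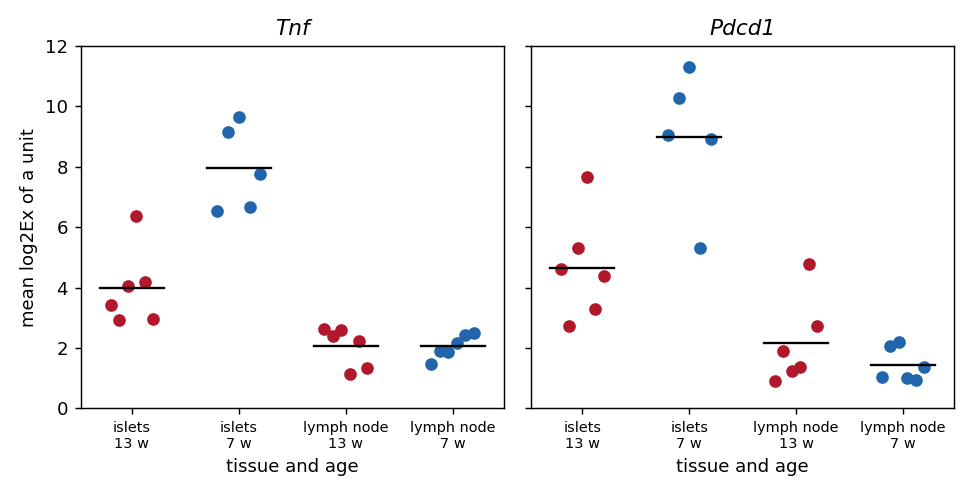
Each point is the mean log2Ex of Tnf (left) or Pdcd1 (right) in 1 unit of rich wells, by tissue and age, with black bars at the group means. In the islets the 13-week means are 3.98 and 4.66 and the 7-week means 7.96 and 8.97, while the lymph node units stay between 0.91 and 4.79 at both ages.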

How the data were processed

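Each chip's deposited table, as the authors exported it, gives a threshold cycle (Ct) and a pass or fail call for every well and assay. Per the file headers the export used a quality threshold of 0.65 and 1 automatic threshold per chip. Genome build and assay sequences were not used here, so no positions or sequences are printed.

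The islet wells gave 45120 values. Passes numbered 11350, with 11259 before cycle 24. A further 4525 values came before that cycle but had failed, and these were set to 0. No reference gene scaling was applied. Wells were matched to samples by name, and 145 wells of the chips used matched no sample. For 6 cells title and labelled tetramer disagreed, and they were left out. No 2 islet wells held identical values.

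Unit means (at least 5 cells) entered lmFit and eBayes of limma 3.58.1 (R 4.3.3, two-sided) for each gene that 5% or more of the cells at an age detected. The tetramer was a term and the animal a random block (duplicateCorrelation), since both tetramers of an animal came from the same animal. P-values were adjusted by Benjamini-Hochberg over the genes tested, with a threshold of 0.05. Shares of wells were compared over animals by exact permutation (scipy 1.17.1). The fit was tested on simulated data.

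Genes named were the 10 with the smallest p, since fewer than 10 passed, and 18 chosen genes of T cell identity, effector and regulatory function, with members of fixed gene lists. These lists, with tested members, were Th1 and effector (9), Th2 (2), Th17 (2), regulatory (4), follicular helper (4), activation and memory (5), inhibitory receptor (2), naive and central memory (2), chemokine receptor (8), cytokine receptor (10), interferon-stimulated (12), signalling (12), T cell identity (3), survival (1), reference (2) and antigen-presenting (5). Lists for B, myeloid, NK and endocrine cells had 0 assays on the panel. Members and lists were chosen with earlier results of these data known. Where labels do not say that samples were separate animals, p-values measure only the spread between these samples. Some assays of the panel entered the fits and counts but are not reported here by name.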

Additional observations from a re-analysis of the deposited data

Results flagged for a closer look

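Among 48 groups of units or animals tested for a value far from the rest, 6 had one, and chance flags about 1 in 20. At 13 weeks Tnf stood apart in the 13-21 cells of M3 at 6.36, the other units being at 4.18 or less. Il21 stood apart in the same unit at 7.99. At 7 weeks the 12-20 cells of M1 stood apart for Cd3e at 14.84 and for Il2ra at 7.57. The 12-20 cells of i2 stood apart for Cd80 at 0.95. Every other 7-week unit was at 0 for Cd80, so any value above 0 would have been flagged. The share of rich wells without Cd3e was 62.5% in i3, 5 of 8 wells, beside 0 in M1, M3, M4 and i2.

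Tnf and Pdcd1 differed between tissues in their age difference, by -3.99 and -4.88, by limma's interaction term. Their 7-week lymph node means were only 2.06 and 1.44, so a fall as large as in the islets was not possible there. With the animal as a fixed block neither gene was called.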

How the results depend on the processing

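In rich wells the count of genes past the threshold, 0 as reported, became 2 with 3 or more cells per unit, 10 with units centred, 12 with Gapdh taken off, 20 with the number of assays as a covariate, 1 with shares of cells detected, and 0 to 15 with an animal left out. Over all wells the 19 genes became 5 with calls ignored, 0 in wells with Cd4 and Cd3e, 0 with 3 and 30 with 10 or more cells per unit, 11 with units centred, 7 with 1 mean per animal and 37 with units weighted by cells. They became 30 with shares detected, 0 with levels in detecting cells, 36 with sorts merged with animals of the same number, 0 with sorts left out, 0 without M7, M10 and M11, and 0 to 45 with an animal left out. Among 12-20 cells the 0 became 9 with units centred, 2 with 3 or more cells, and 0 to 16 with an animal left out. Among 13-21 cells it became 0 to 11 with an animal left out. The 2 genes of the tissue comparison became 12 with units centred, 1 in wells with Cd4 and Cd3e, and 0 to 18 with an animal left out. The cause of these shifts was not tested.

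Both tetramers of an animal are paired by the animal, which the main fit holds as a random block. Without that block the counts were 14 in rich wells, 7 in each direction, and 48 over all wells. With the animal as a fixed block the tissue comparison gave 0.

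The difference in assays per rich well, 0.537 as reported, was -2.11 to 2.01 with an animal left out and turned negative without the 13-week M2 (-0.45) or the 7-week M2 (-0.37) or i3 (-2.11). The difference in the share of wells without Cd3e was 30.9 points at 30 or more assays.

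Of the genes named, some changed sign in rich wells. With calls ignored Cd40 was at -0.058. In wells with Cd4 and Cd3e, with 5 or more cells, Il2ra was at 0.18, Ctla4 at 0.60 and Cd4 at -0.58, and with 3 or more cells at 0.90, 0.22 and -0.83, with Bcl6 at -2.15. Bcl6 was at -0.96 with 3 or more cells per unit, -0.77 with 1 mean per animal, -0.018 as a level; leaving out an animal gave -0.34 (13-week M4) to 0.46. Cd44 was at 0.25 with Gapdh taken off, 0.085 as a level, 0.10 with sorts merged. Leaving out an animal gave Cd44 -0.81 to 0.41, above 0 without the 13-week M3 (0.38) or the 7-week M1. Cd4 was at -0.020 as a share, -0.18 without sorts and without i2, and -0.23 (without the 13-week M2) to 1.17 with an animal left out. As levels Ctla4 was at 1.20 and Il21 at 0.97. Il7r was at -0.21 without sorts and without i2, and at up to 1.25 with another animal left out. With an animal left out Il2ra was at -2.01 to 0.35 and Ccr7 at -2.65 to 0.14, above 0 only without the 7-week M1. Over all wells Cd40 was at -0.98 with calls ignored. In wells with Cd4 and Cd3e, Icam1 was at -0.16, Irf2 at -0.25, Irf7 at -0.41, Jak2 at -0.14 and Tnfaip3 at -0.073. With units centred Cd40 was at -0.60 and Cd80 at -0.54. As levels Irf1 was at -0.35 and Jak2 at -0.37. Tnf, Pdcd1, Il18r1 and Ifng kept their direction in rich wells under all 28 alternatives. So did Cd3e, Cd80, Cd86, Il4ra, Stat4, Tbx21, Cxcr3, Foxp3, Il10 and Icos. A kept direction therefore did not set any of these genes apart.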

Other observations

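Islet cells of a single animal labelled 8 weeks, M3, stained with the 12-20 tetramer, belong to neither age. Of its 23 wells 22 were rich (95.7%). Cd3e and Cd4 were detected in all 22, Cd80 in 2 (9.09%), and Cd40 and Cd86 in none, which allows a share of up to 13.6%. Foxp3 was detected in 17 of 22 (77.3%, Clopper-Pearson 95% interval 54.6 to 92.2), and Ctla4 in 21 of 22. With 1 animal there is no test against either age.

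Short lists added little in rich islet wells. The 2 tested Th2 genes had a median difference of 1.39 and the 2 tested Th17 genes one of -0.47. The 8 chemokine receptors had a median of -0.72, with 3 higher and 5 lower, and the 3 T cell identity genes one of -2.92. The survival gene Bcl2 differed by -1.40.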
